A study of Mus musculus with 32 samples.

Results

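Spleen cells were compared with naive spleen cells, 4 libraries against 4, chosen by their labels alone out of 32 bulk RNA-sequencing libraries in 8 groups of 4. Both groups were CD8+ Thy1.1+ Pmel cells of C57BL/6 mice aged 16 weeks, that is, T cells whose transgenic receptor recognizes an antigen of melanocytes. All samples of the series, the naive ones included, are labelled as melanoma-associated vitiligo, a loss of melanocytes that follows an immune response to melanoma. The naive cells also came from spleen, so the groups share the organ and the receptor, and the labels call 1 of them naive. For reference, they were also set against 4 day 12 libraries of Pmel cells from lymph nodes draining the tumor. The labels give the spleen group no time point and do not themselves call it memory, and for the dissociation of spleen no method stands in the sources used here. Whether the samples of a group came from different animals is not stated either, so the p-values cover the spread among libraries, which may be technical. The unit is TPM, the share of a transcript in the RNA of a library, and read depth is unknown.

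Naive CD8 T cells circulate between blood and lymphoid organs, guided in part by the chemokine receptor encoded by Ccr7, and their state is maintained by transcription factors such as Tcf7, Lef1 and Satb1. After they meet antigen they divide, turn on Tbx21, Id2 and Prdm1, arm themselves with granzymes and interferon gamma, and change their homing receptors towards inflamed tissue. Memory cells that remain keep part of this equipment ready at the RNA level. Central memory cells keep Ccr7, and effector memory cells in spleen and blood have less of it.

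The identity of the libraries was checked against marker genes. The 16 genes of a T cell identity list, among them the CD3 and CD8 chains, summed to 43266, 38130.1, 37668 and 43700.4 TPM in naive replicates 1 to 4 and to 16387, 23958, 32108 and 11940.2 TPM in spleen replicates 1 to 4. Every spleen library lay below every naive library, with means of 21098 ± 8859 against 40691 ± 3234 TPM (SD, n = 4 each; exact two-sided permutation p = 0.0286, adjusted over 13 marker lists p = 0.0413). The member with the most RNA in each library was the receptor constant chain Trbc2, at 24941 to 29188 TPM in naive and 8047, 12827, 20503 and 5266 TPM in spleen libraries. This gene thus weighs most in the sum and in the scaling to it used below. Taken singly, 0 of the 16 genes were called higher and 1 lower, with a median log2 change of -0.51. Cd2 went against the sum, at 455 to 522 TPM in naive and 972, 879, 744 and 677 TPM in spleen libraries. Cd8a measured 724 to 815 TPM in naive and 250.2, 569, 499 and 282 TPM in spleen libraries, and Cd3g 1384 to 1630.1 against 1377, 1614, 1492 and 791 TPM, so both defining chains were present in all 8. Thy1, the gene of the sorted congenic marker, measured 32.9 to 44.9 TPM in naive and 163, 122, 51.6 and 28.7 TPM in spleen libraries.

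Marker sums of several other blood cell types were higher in the spleen libraries, by amounts that differed between them. All 18 B cell genes together reached 4785, 6482, 13191 and 35141 TPM in spleen replicates 1 to 4 against 899.8 to 1096 in naive libraries, where Cd79a, a chain of the B cell receptor, stood at 2.95 to 6.88 TPM and Ighm made up most of the sum. The 20 macrophage and monocyte genes summed to 1228, 1458, 886 and 7592 TPM against 6.12 to 9.67, and Csf1r, which defines these cells, to 8.45, 31.2, 13.2 and 177 against 0.02 to 0.06. Replicate 4 stood apart for neutrophil genes, at 4929 TPM against 50.9 to 102 in the other spleen libraries and 6.15 to 15.4 in naive ones. The NK list of 11 genes summed to 3856, 1263, 523 and 2057 TPM, mostly Gzma, with the defining Ncr1 at 0.32, 0.83, 0 and 24.4 TPM. The 7 genes of CD4 and regulatory T cells summed to 34.6 to 68.6 TPM against 9.66 to 10.9. The defining Cd4 was at 0.26, 0.13, 2.72 and 11 TPM against 0.34 to 0.82, and Cd40lg at 11.8, 28.7, 19.3 and 27.8 TPM against 0 to 0.31. In bulk samples, fewer T cells, less RNA per T cell and less RNA of the heaviest members of the T cell identity list cannot be told apart. The part of these other cell types in the genes below was not tested. Expression spread more in spleen, with a residual SD of 0.892 on the log2 scale against 0.387 in naive cells.

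**Figure D1:**
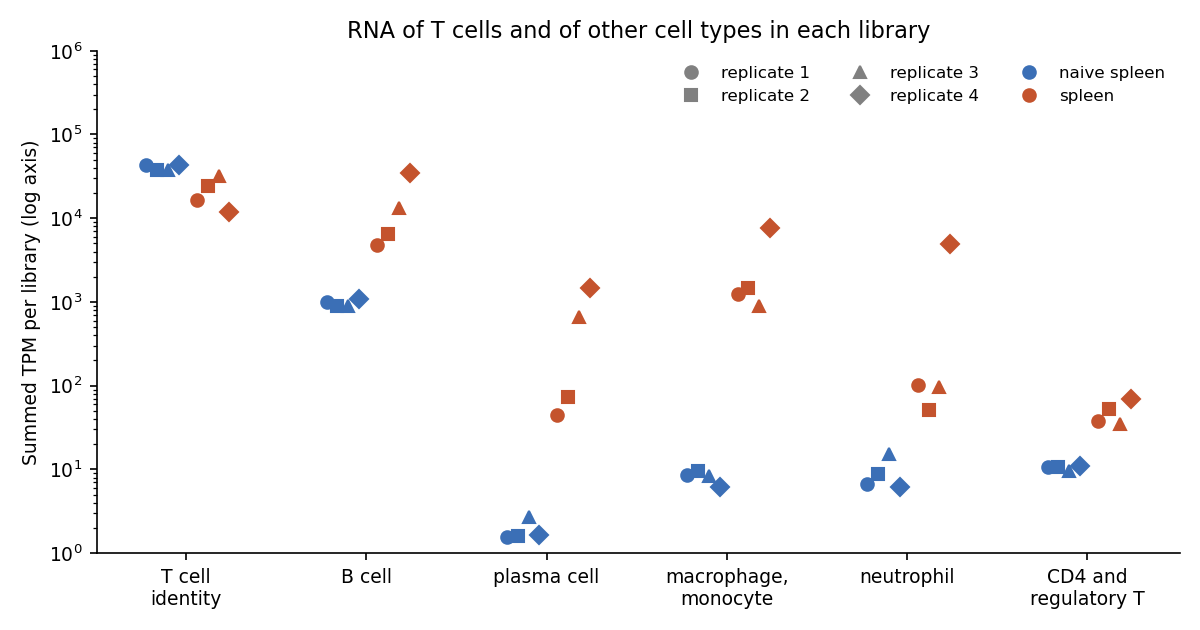
Summed TPM of 6 marker gene lists in each library, on a log axis, with naive spleen libraries in blue and spleen libraries in red and 1 symbol per replicate number. T cell identity lay lower and the other 5 sums higher in all 4 spleen libraries than in any naive library, and replicate 4 had the least T cell RNA and the most B cell, plasma cell, myeloid and neutrophil RNA of the spleen libraries.

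In the comparison of all 19738 genes with at least 1 TPM in 4 or more of the 32 libraries, 715 were higher and 486 lower in spleen at an adjusted p under 0.05 (limma with Benjamini-Hochberg adjustment), which is 3.62% and 2.46% of the genes tested and 6.08% in all. A gene past this threshold is called, and these shares of all genes are the background for the list counts below. Changes are on the log2(TPM + 1) scale with the standard error (SE) of the fit, which understates the change of genes at low TPM, and the median change over all genes was -0.05. The values of the 4 spleen libraries did not overlap those of the 4 naive libraries for 19.6% of genes, 8.16% higher and 11.4% lower. The balance of rises and falls moved with scaling: when each library was scaled to its T cell identity sum, which shifts the median of all genes to 0.59, 1229 genes were called higher and 41 lower. Quantile normalization gave 788 higher and 848 lower, so 48.2% of calls were rises there against 59.5%. Of the genes called lower, 43.62% had their highest spleen value in replicate 3, against 17.44% of all genes tested. Of those called higher, 49.51% had theirs in replicate 4, against 38.7%.

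**Figure D2:**
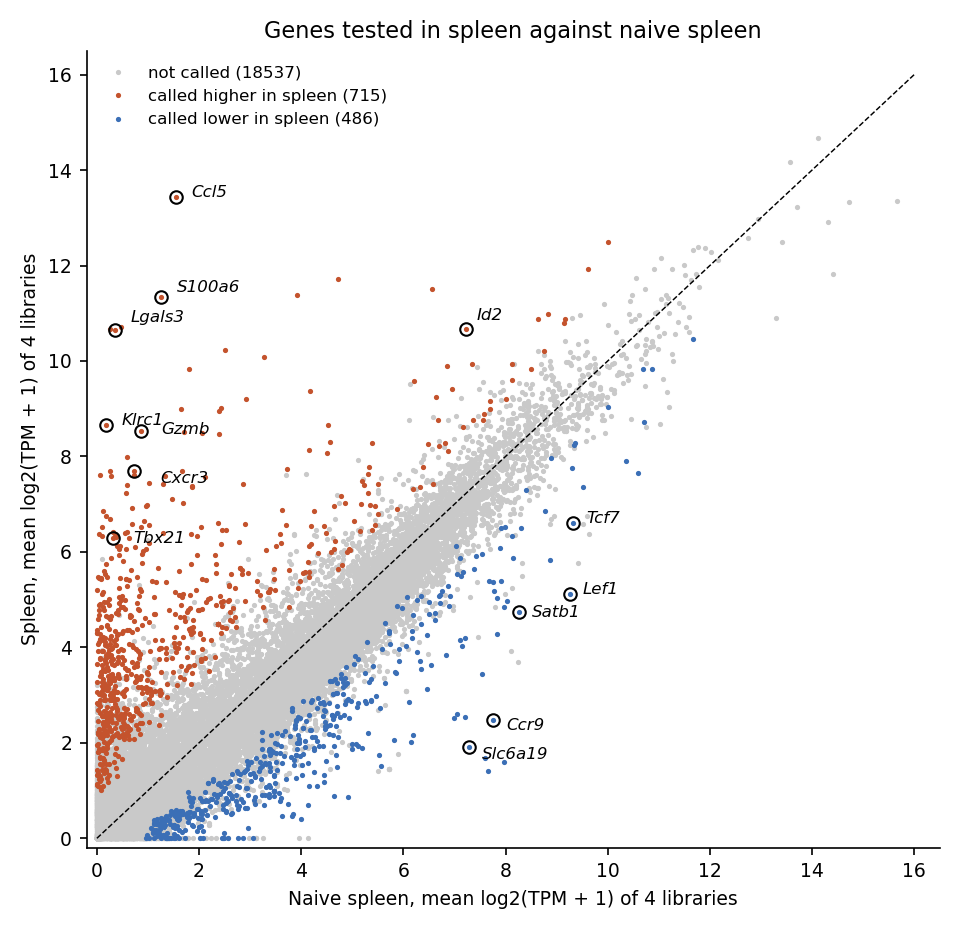
Mean log2(TPM + 1) of the 4 spleen libraries against that of the 4 naive libraries for 19738 genes, with 715 called higher in red, 486 called lower in blue and a dashed line at equal levels. Ccl5, Lgals3, S100a6 and Klrc1 lie far above the line from naive levels near 0, and Ccr9, Slc6a19, Lef1 and Satb1 lie below it.

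Of the secreted factors, the chemokine gene Ccl5 gave the largest rise of all named genes. Naive replicates 1 to 4 held 0.82, 3.01, 3.91 and 1.06 TPM of Ccl5 and spleen replicates 1 to 4 held 23419, 21670.4, 5067 and 5757 TPM. Every spleen library was far above every naive one, and replicates 1 and 2 were the highest, for a log2 change of 11.88 ± 0.65 (adjusted p = 1.65e-13). Ccl4, another chemokine gene, went from 0.75 to 1.34 TPM to 302, 124, 48.9 and 127 TPM (6.00 ± 0.53, adjusted p = 4.89e-09). Ifng, the interferon gamma gene, measured 0.06, 0.3, 0.05 and 0.22 TPM in naive and 23.8, 34.9, 5.72 and 38.7 TPM in spleen libraries, lowest in replicate 3 and without overlap (4.26 ± 0.59, adjusted p = 1.09e-05). Csf1, which encodes a growth factor of macrophages, rose from 0.08 to 0.24 TPM to 35.5, 58.7, 23.4 and 70.6 TPM (5.26 ± 0.63, adjusted p = 1.08e-06). These 4 were the called ones of 18 cytokine and chemokine genes tested, 0 fell, and the list's median was 0.49, or 0.79 without spleen replicate 1 and 0.32 without spleen replicate 3. Tnf measured 5.47 to 7.99 TPM in naive and 1.85, 1.85, 7.08 and 8.95 TPM in spleen libraries, with overlap (-0.57 ± 0.57, adjusted p = 0.654). Il2, the T cell growth factor, had 0.91 to 2.26 against 5.3, 27.3, 0 and 7.06 TPM, and Xcl1, which attracts cross-presenting dendritic cells, 0.4 to 2.05 against 24.3, 8.14, 16.8 and 21.2 TPM. Neither was called, at adjusted p = 0.318 and 0.0515.

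Genes of the killing machinery followed. Of 22 cytotoxic genes 8 rose and 0 fell, with a median of 0.72. Gzmb, a granzyme protease that triggers death of target cells, measured 0.93, 0.6, 0.63 and 1.17 TPM in naive libraries and 451, 664, 134 and 458 TPM in spleen libraries. Replicate 3 was the lowest spleen library and still stood above all naive ones (7.67 ± 0.55, adjusted p = 4.1e-11). Gzma, another granzyme, measured 4.36, 5.35, 4.8 and 4.39 against 3636, 1024, 413 and 1353 TPM, the most in replicate 1 (7.72 ± 0.90, adjusted p = 8.21e-07). Gzmk, a granzyme of memory cells, was at 0 to 0.15 TPM in naive libraries and at 142, 47.6, 30.6 and 187 TPM in spleen (6.22 ± 1.04, adjusted p = 0.000197). Fasl, the death ligand gene, went from 0.1 to 0.36 to 55.3, 70.2, 27.7 and 103 TPM (5.60 ± 0.55, adjusted p = 2.87e-08). Nkg7, a granule membrane protein already at 708 to 878 TPM in naive cells, reached 6336, 6413, 2659 and 2179 TPM (2.33 ± 0.55, adjusted p = 0.00804). Stx11, which takes part in granule release, Gzmm and Ctsw completed the list of rises, at 2.63, 2.48 and 1.45. Prf1, which encodes the pore protein perforin, was at 47.1 to 54 TPM in naive cells and 55.3, 80.9, 73.1 and 133 TPM in spleen, a change of 0.70 ± 0.81 that was not called (adjusted p = 0.704). The call for Stx11 was lost without spleen replicate 2 (adjusted p = 0.0582) and without spleen replicate 4 (adjusted p = 0.0629). In those 2 fits 6 of the 22 genes rose. The number was 7 without spleen replicate 1 or any naive replicate, where Stx11 stayed called, and 9 without spleen replicate 3. Gzma is also a gene of NK cells.

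Promoters are shown for 3 of the genes that rose most and 2 that fell most, so that their upstream sequence can be read beside their values; they were chosen after the values were seen. Each is the 250 bases before the start of the gene from RefSeq, build GRCm38.p6, 5′ to 3′ on the strand of the gene. Capitals mark every match, on either strand, to motif letters of transcription factor families described below: T-box (TCACAC), RUNX (TGTGGT), AP-1 (TGANTCA), TCF/LEF (CTTTGA) and ETS (CCGGAAG).
Cxcr3, chrX:101734148-101734397, minus strand: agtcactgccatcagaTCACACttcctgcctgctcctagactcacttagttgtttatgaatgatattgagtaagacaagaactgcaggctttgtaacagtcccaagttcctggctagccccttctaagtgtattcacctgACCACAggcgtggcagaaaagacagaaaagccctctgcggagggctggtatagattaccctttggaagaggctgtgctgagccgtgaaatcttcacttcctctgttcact
Gzmb, chr14:56262335-56262584, minus strand: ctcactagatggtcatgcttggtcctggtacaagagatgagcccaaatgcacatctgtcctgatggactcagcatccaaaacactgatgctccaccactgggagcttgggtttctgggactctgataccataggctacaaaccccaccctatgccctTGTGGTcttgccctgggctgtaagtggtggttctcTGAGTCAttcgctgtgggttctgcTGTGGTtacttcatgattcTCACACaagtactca
Klrk1, chr6:129623865-129624114, minus strand: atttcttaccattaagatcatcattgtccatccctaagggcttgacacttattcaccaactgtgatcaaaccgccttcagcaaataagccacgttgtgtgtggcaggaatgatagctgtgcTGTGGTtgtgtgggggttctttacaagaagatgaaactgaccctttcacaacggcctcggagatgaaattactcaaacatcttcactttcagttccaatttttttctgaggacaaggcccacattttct
Ccr9, chr9:123766961-123767210, plus strand: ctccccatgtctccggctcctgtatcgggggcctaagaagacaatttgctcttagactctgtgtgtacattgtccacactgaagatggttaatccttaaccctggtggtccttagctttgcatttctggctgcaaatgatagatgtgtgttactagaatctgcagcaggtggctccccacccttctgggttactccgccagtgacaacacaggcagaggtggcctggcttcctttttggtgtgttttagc
Slc6a19, chr13:73692637-73692886, minus strand: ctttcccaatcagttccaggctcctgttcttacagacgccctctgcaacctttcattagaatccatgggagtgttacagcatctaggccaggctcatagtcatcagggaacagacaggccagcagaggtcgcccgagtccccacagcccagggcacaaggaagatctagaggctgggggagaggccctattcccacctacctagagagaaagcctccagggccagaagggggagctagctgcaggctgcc
The Cxcr3 window held a T-box match from -234 to -229 and a RUNX match from -110 to -105, counted from the base before the start as -1. The Gzmb window held a T-box match from -15 to -10, RUNX matches from -93 to -88 and from -34 to -29, and an AP-1 match from -58 to -52. Klrk1 had 1 RUNX match, from -129 to -124, and the windows of Ccr9 and Slc6a19 had 0 matches to the 5 motifs. Windows of the same length with a match made up 12.23% of 27025 RefSeq promoters for T-box, 14.18% for RUNX, 6.87% for AP-1, 14.05% for TCF/LEF and 7.05% for ETS. Among the 10915 genes tested that had a promoter entry the shares were, in the same order, 9.55%, 11.52%, 4.9%, 11.39% and 12.62%. The 10 largest rises and the 10 largest falls were taken by the naming rule given below, which left out markers of other cell types. Gzma and Ccr9 are such markers, so neither is in the counts that follow. Of these rises, 9 had a promoter entry, 5 of them with a RUNX match and 3 with a T-box match. Of these falls, 8 had an entry, 2 with a RUNX match and 2 with a T-box match. Ccl5 and Slc16a5 had no entry. Since only 55.3% of the 19738 genes tested had one, shares over all called genes are not given, and these counts describe the named genes alone. A match describes the letters and shows no binding.

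Transcription factors of effector and memory cells rose in 9 of 22 members and 1 fell, with a median of 1.51. Tbx21, which encodes T-bet, a T-box factor that drives Ifng and Cxcr3, went from 0.13, 0.38, 0.15 and 0.34 TPM in naive libraries to 64.1, 95.8, 63.9 and 92.3 TPM in spleen. The 4 spleen values lay close together and far above the naive ones (5.98 ± 0.57, adjusted p = 1.72e-08). Id2, an inhibitor of E proteins, measured 153, 143, 137 and 162 TPM in naive and 2141, 2778, 710.4 and 1639 TPM in spleen libraries (3.44 ± 0.44, adjusted p = 4.07e-06). Hopx, a homeodomain cofactor of effector cells, went from 20.5 to 25.2 TPM to 418, 437, 169 and 314 TPM (3.74 ± 0.45, adjusted p = 1.22e-06). Bhlhe40, a regulator of cytokine production, reached 31.3, 2.92, 27.6 and 47.1 TPM from 0.09 to 0.5 TPM, with replicate 2 well below the other spleen libraries (4.0 ± 0.72, adjusted p = 0.000436). Zeb2, which works with T-bet in effector cells, rose by 2.57, Rora by 2.27, Prdm1, which encodes Blimp-1, by 1.89 and Maf by 1.81. Irf8, which B cells and dendritic cells also make, measured 43, 19.6, 55.9 and 269 TPM in spleen libraries, with most in replicate 4, the library of most B cell RNA, and 1.86 to 3.49 TPM in naive ones (3.98 ± 0.74, adjusted p = 0.000642). Its part from those cells was not tested. Tox, a regulator of persistently stimulated T cells, fell from 23.9 to 30.5 TPM to 3.41, 0.81, 15.9 and 7.64 TPM (-2.21 ± 0.61, adjusted p = 0.0239), a call lost without spleen replicate 1, spleen replicate 2 or any naive replicate. Eomes, the other T-box factor of CD8 memory, was at 1.54, 1.61, 1.29 and 1.25 TPM in naive and 3.1, 1.16, 8.13 and 11.3 TPM in spleen libraries, which overlapped (1.22 ± 0.58, adjusted p = 0.254). Runx3, a factor of the CD8 lineage, was at 31.5 to 41.2 against 31.6, 37.3, 26.6 and 36.5 TPM, a change of -0.06 ± 0.52.

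Receptors that guide migration changed in both directions. Of 34 chemokine receptor, integrin and adhesion genes 12 rose and 2 fell, with a median of 0.74. Cxcr3, the receptor for chemokines induced by interferon gamma, had 0.87, 0.55, 0.8 and 0.46 TPM in naive and 161, 413, 119.7 and 225 TPM in spleen libraries. Replicate 2 was the highest and replicate 3 the lowest spleen library (6.96 ± 0.49, adjusted p = 3.12e-11). Ccr2, which binds monocyte-attracting chemokines, went from 0.32, 0.5, 4.45 and 0.42 TPM to 148, 195, 45.2 and 190.2 TPM (6.00 ± 0.54, adjusted p = 6.02e-09). The skin-associated receptor Ccr10 was at 0 to 0.04 TPM in naive cells and at 11.3, 269, 20.8 and 48.6 TPM in spleen, so replicate 2 held several times more than any other spleen library (5.40 ± 0.80, adjusted p = 3.19e-05). Ccr8, likewise linked to skin homing, was at 20.6, 99.4, 21.2 and 30.0 TPM in spleen against 0 to 0.17 (5.03 ± 0.80, adjusted p = 9.31e-05), again most in replicate 2. Cx3cr1, a marker of effector cells that patrol vessels, reached 44.4, 53.7, 21.3 and 80.7 TPM from 0.07 to 0.15 TPM (5.37 ± 0.54, adjusted p = 4.38e-08). Cxcr6, which binds a membrane-bound chemokine of spleen and liver, rose from a naive level of 115 to 133 TPM to 563, 1071, 447 and 814 TPM (2.47 ± 0.48, adjusted p = 0.00131). Ccr6 and Itgax, with rises of 3.39 and 3.36, are also genes of B cells and of dendritic cells, whose part was not tested. The macrophage and monocyte list summed to 1228, 1458, 886 and 7592 TPM in spleen replicates 1 to 4. Its part in Ccr2 and Cx3cr1 was not tested either.

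Adhesion genes changed in both directions. Cd44, a hyaluronan receptor used to tell antigen-experienced from naive T cells, measured 0.63, 0.8, 1.54 and 0.58 TPM in naive and 44.3, 65.6, 27 and 103 TPM in spleen libraries. The lowest spleen value was many times the highest naive value (4.88 ± 0.45, adjusted p = 1.13e-08). Itgb1 and Itga1 encode the 2 chains of an integrin that binds collagen. Itgb1 rose from 19.7 to 24.8 TPM to 305, 746, 211 and 546 TPM (4.13 ± 0.51, adjusted p = 2.03e-06) and Itga1 from 0.03 to 0.12 TPM to 10.3, 17, 3.25 and 17.4 TPM (3.41 ± 0.66, adjusted p = 0.00108). Itga6, a laminin receptor chain, fell by 1.29 on the log2 scale (adjusted p = 0.037), a call lost without spleen replicate 1 or 2 or any naive replicate. Itga4, a chain of the integrins for VCAM-1 and MAdCAM-1, was lower without passing, at 10.03, 3.53, 7.1 and 22 against 26.7 to 37.2 TPM (adjusted p = 0.0553). Fut7, a fucosyltransferase that completes selectin ligands, was at 0.22 to 0.79 TPM in naive cells and 58.7, 135, 23.6 and 49 TPM in spleen (5.29 ± 0.77, adjusted p = 2.85e-05). Of 18 enzymes of selectin ligands and related glycans 3 rose, Fut7, the sialyltransferase St3gal6 and the core branching enzyme Gcnt1, and 1 fell, the sialyltransferase St8sia1, with a median of 0.08 that turned to -0.25 without spleen replicate 4. St8sia1 was called in the fit of all libraries and without spleen replicate 3, and not without any other library (adjusted p from 0.0544 to 0.197). St3gal6 went from 10.7 to 13.9 to 62.8, 135, 72.2 and 124 TPM (2.87 ± 0.45, adjusted p = 7.84e-05) and Gcnt1 from 0.16 to 0.3 to 8.14, 15.5, 0.78 and 12.1 TPM, with replicate 3 near the naive level (2.66 ± 0.60, adjusted p = 0.00495).

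Genes of the naive program fell. Of 28 genes of naive and central memory cells 13 were called lower and 0 higher, 26 lay lower in all 4 spleen libraries than in any naive library, and the median change was -2.08. Among all genes tested 11.4% lay lower in this way. So did 17 of 30 T cell receptor signalling, 13 of 27 interferon response and 6 of 8 Gimap genes. In the S100, annexin and galectin list 0 of 21 did. Ccr9, a gut-homing receptor that naive CD8 T cells also carry, measured 221, 217, 209 and 217 TPM in naive and 1.28, 0.98, 46.2 and 3.42 TPM in spleen libraries. Replicate 3 kept far more than the other spleen libraries and was below every naive library (-5.29 ± 0.76, adjusted p = 1.98e-05). Lef1, a DNA-binding partner of the Wnt pathway, measured 674, 588, 586 and 595 TPM against 10.5, 4.88, 313 and 67.5 TPM, again highest in replicate 3 (-4.14 ± 0.93, adjusted p = 0.00492). Satb1, a chromatin organizer of thymocytes and naive cells, had 355, 289.9, 295 and 290.1 TPM in naive and 12, 6.28, 91.4 and 57 TPM in spleen libraries (-3.53 ± 0.71, adjusted p = 0.00173). Tcf7, which encodes TCF-1, a factor of naive cells and of self-renewing memory cells, had 628, 633, 665 and 628 TPM against 33.1, 52.4, 308 and 160.2 TPM (-2.71 ± 0.61, adjusted p = 0.00499). The chains of the interleukin-6 receptor fell together, Il6st from 27.7 to 46.2 to 0.62, 0.32, 15.2 and 11.8 TPM (-3.11 ± 0.58, adjusted p = 0.000765) and Il6ra from 18.1 to 29.4 to 0.61, 1.65, 9.06 and 8.95 TPM (-2.36 ± 0.59, adjusted p = 0.0126). The other called falls were Nsg2, Igfbp4, Ramp1, Sox4, Actn1, Myb and Treml2, between -3.26 and -1.93. Il6ra was not called without spleen replicate 1 (adjusted p = 0.0768) or 2 (adjusted p = 0.0594), nor Nsg2 without spleen replicate 2 (adjusted p = 0.0521).

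The lymph node homing receptor gene Ccr7 was lower in every spleen library but was not called. Ccr7 measured 707, 662, 650.0 and 713 TPM in naive libraries and 14.2, 8.5, 445 and 139.7 TPM in spleen libraries. Spleen replicates 1 and 2 held a small part of the naive level, and replicates 3 and 4 held much more, for a change of -3.64 ± 1.24 (adjusted p = 0.0811). Without spleen replicates 3 and 4, a choice made after the values were seen, Ccr7 changed by -5.83 (adjusted p = 0.00707), and 18 of the 28 genes were called lower with a median of -3.06. Replicate 3 had the most T cell identity RNA of the spleen libraries. Under the scaling to T cell identity the median of the 28 genes was -1.10, against 0.59 over all genes, 1 was called lower, Ccr9, and 1 higher, and the calls for Lef1, Satb1 and Tcf7 were lost. Quantile normalization called 17 lower, the T cell identity sum as a covariate 14, and a fit without spleen replicate 2 called 8. In a fit of these 8 libraries alone Lef1 was not called (adjusted p = 0.0713).

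**Figure D3:**
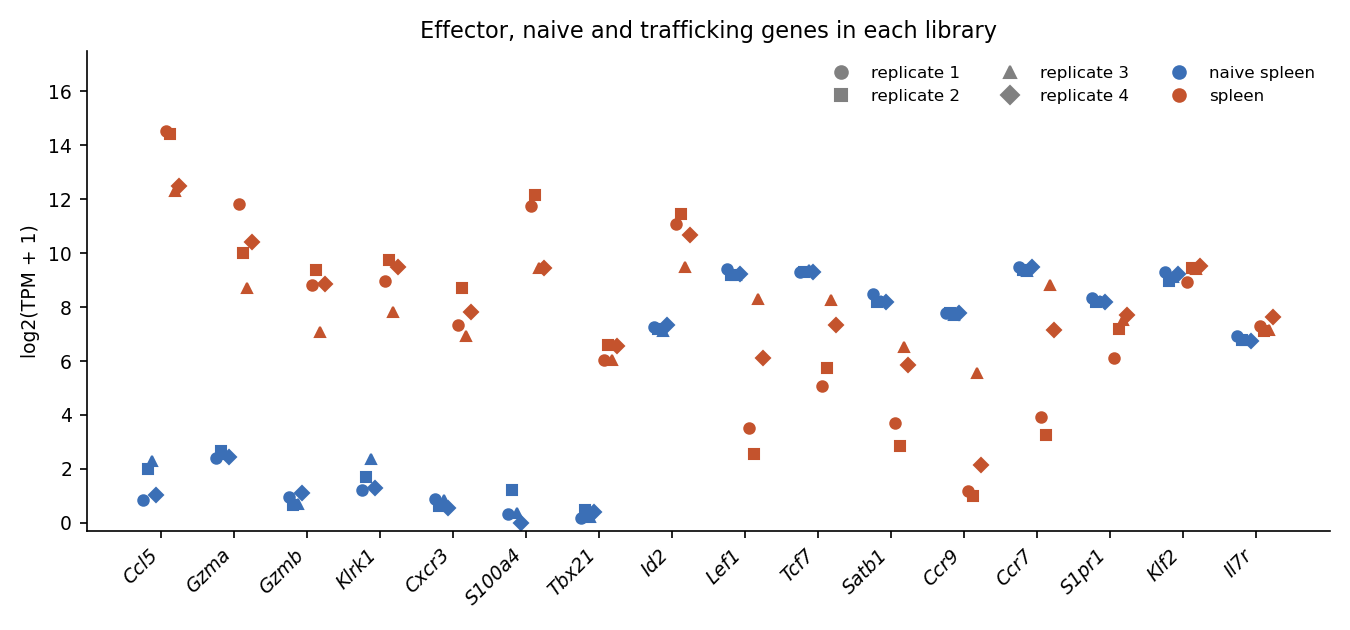
log2(TPM + 1) of 16 effector, naive and trafficking genes in each naive (blue) and spleen (red) library, with 1 symbol per replicate number. Ccl5 to Id2 are higher in all spleen libraries, whereas Lef1 to S1pr1 are lower by unequal amounts, with spleen replicates 1 and 2 (circles and squares) below replicates 3 and 4 for Lef1, Tcf7, Satb1 and Ccr7.

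Genes of circulating T cells were called in both directions. Klf2, the factor that drives S1pr1, had 630.4, 504, 555 and 594 TPM in naive and 483, 698, 683 and 725 TPM in spleen libraries, which overlapped (0.17 ± 0.46, adjusted p = 0.9). S1pr1, the receptor by which T cells leave lymphoid organs, measured 322, 289, 300.3 and 291 against 69, 144, 185 and 209.9 TPM, lower in each spleen library without passing (-1.09 ± 0.88, adjusted p = 0.549). Klf3 fell, from 288 to 353 TPM to 43.7, 83, 137 and 125 TPM (-1.81 ± 0.51, adjusted p = 0.0284). Of 31 genes of circulating cells 3 rose, Cx3cr1, Samd3 and Kcnj8, and 5 fell, Lef1, Tcf7, Klf3, Cmah and Usp33, with a median of -0.43 that became 0.48 when libraries were scaled to T cell identity, where the median of all genes was 0.59. Without spleen replicate 1 or 2 or any naive replicate 3 of the 31 were called lower, and Kcnj8 was not called without spleen replicate 1 (adjusted p = 0.0635). S1pr5, an exit receptor of effector cells, was at 11.9, 0, 3.34 and 18.4 TPM in spleen against 0.08 to 0.22 and was not called (2.32 ± 0.84, adjusted p = 0.105).

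Of 37 residency genes tested, named for their level in cells that stay in tissues, 9 rose and 3 fell, with a median of 0.50 that was 0.17 without spleen replicate 4. Ccr8, Itga1, Cxcr6 and Prdm1, described above, were among the 9. Ttc39c, a gene of the residency list, went from 0.03 to 0.26 TPM to 22.6, 80.7, 10.4 and 33.6 TPM (4.64 ± 0.50, adjusted p = 2.15e-07). Plscr1, a phospholipid scramblase, and Litaf, an endosomal protein, rose by 3.79 and 3.64. Rgs1, which dampens chemokine receptor signals, rose from 3.34 to 4.17 TPM to 36.3, 22.2, 14.7 and 85.8 TPM (2.82 ± 0.44, adjusted p = 7.95e-05). The falls were Inpp4b, Spsb1 and Dusp6, by 2.58, 2.45 and 2.12 on the log2 scale. Without spleen replicate 1 or 2 or any naive replicate 2 of the list were called lower. Under the scaling to T cell identity 0 were lower and 12 higher, where 41 of all genes tested were called lower and 1229 higher. The rises numbered 7 without spleen replicate 2 or 4 or any naive replicate, and 11 without spleen replicate 3. Cd69, Itgae and Zfp683, markers of resident cells, were not called. Cd69, which holds cells in tissue by removing S1PR1 from the surface, was at 119, 110.2, 104 and 123 TPM in naive libraries and lower, at 15.3, 52, 73 and 94.3 TPM, in spleen (-1.21 ± 0.46, adjusted p = 0.135). Itgae, the CD103 chain, was at 97, 82.5, 86 and 73.7 against 38.3, 141, 39.6 and 64.2 TPM, with overlap (-0.46 ± 0.61, adjusted p = 0.747), and its sign turned to 0.57 under the scaling to T cell identity and to 0.52 with it as a covariate. Zfp683, which encodes Hobit, stood at 2.4, 5.66, 0.19 and 3.92 TPM in spleen and 0.39 to 1.7 TPM in naive cells (adjusted p = 0.446).

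Several receptors shared with natural killer cells rose. Of 16 killer lectin and related receptor genes tested 5 rose and 0 fell, with a median of 1.5. Klrc1, which encodes the inhibitory receptor NKG2A, measured 0.03, 0.1, 0.29 and 0.12 TPM in naive and 365, 549, 214 and 608 TPM in spleen libraries (8.48 ± 0.59, adjusted p = 3.12e-11). Klrk1, the gene of the activating receptor NKG2D, went from 1.31, 2.23, 4.19 and 1.43 TPM to 498, 859, 223 and 711 TPM (7.36 ± 0.52, adjusted p = 3.21e-11). In both genes replicate 3 was the lowest spleen library and far above the naive ones. Klre1, an NK receptor gene, rose to 157, 56.7, 49.2 and 109 TPM from 0.25 to 0.87 (5.84 ± 0.96, adjusted p = 0.000149), Klrc2 by 3.57 and Cd244 by 2.82. The call for Cd244 was lost without any of 6 libraries, spleen replicates 1 and 4 and each naive replicate (adjusted p from 0.0542 to 0.074). Klrd1, the partner chain of NKG2A, was already at 363 to 412 TPM in naive libraries and at 673, 583, 458 and 479 TPM in spleen (0.48 ± 0.48, adjusted p = 0.654). Klrg1, a marker of terminal effector cells, was at 0.14, 0.17, 0.13 and 0.09 TPM in naive and 12.5, 2.3, 0.4 and 12.9 TPM in spleen libraries. Replicates 1 and 4 held most of it and replicate 3 nearly none, and the change of 2.26 ± 0.96 was not called (adjusted p = 0.188). Ncr1, which defines NK cells, was near 0 in spleen replicates 1 to 3 and at 24.4 TPM in replicate 4.

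Of 14 genes tested on the inhibitory receptor list 7 rose and 0 fell, with a median of 2.22. The 7 include Pglyrp1 and Entpd1, whose products are not themselves inhibitory receptors. Pdcd1, the gene of PD-1, measured 1.08, 1.27, 1.2 and 1.12 TPM in naive and 20.8, 31.3, 20.1 and 29.9 TPM in spleen libraries, which lay close together (3.59 ± 0.76, adjusted p = 0.0027). Havcr2, the gene of TIM-3, went from 0.03 to 0.12 TPM to 4.67, 16.2, 7.25 and 22 TPM (3.43 ± 0.74, adjusted p = 0.00356) and Tigit from 0.77 to 7.33 TPM to 63, 52.6, 11.4 and 33 TPM (3.42 ± 0.77, adjusted p = 0.00492). Both receptors bind ligands on other cells and limit T cell responses. Pglyrp1, a peptidoglycan-binding protein that neutrophils store, reached 216, 299, 75.7 and 168 TPM from 5.11 to 8.04 (4.56 ± 0.46, adjusted p = 4.23e-08). The neutrophil list summed to 102, 50.9, 97 and 4929 TPM in the same spleen libraries, and its part in Pglyrp1 was not tested. Lilrb4a, which myeloid cells also make, measured 5.83, 20.5, 9.19 and 70.2 TPM in spleen, most in replicate 4, and 0.1 to 0.33 TPM in naive cells (3.92 ± 0.78, adjusted p = 0.00151). Entpd1, the CD39 ectonucleotidase, and Cd101 rose by 3.16 and 2.88. Lag3 at 0.84, 1.24, 1.54 and 1.89 TPM and Ctla4 at 7.2, 11.5, 7.07 and 11.7 TPM in spleen were not called (adjusted p = 0.154 and 0.709).

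Of 19 costimulatory receptor genes 3 rose and 0 fell, beside 3.62% higher and 2.46% lower of all genes tested. Their median of 0.25 turned to -0.18 without spleen replicate 4 and to -0.02 without spleen replicate 2. Slamf7, a self-ligating receptor of cytotoxic and plasma cells, went from 1.85, 1.78, 1.58 and 1.9 TPM to 146, 214, 68.6 and 163 TPM (5.64 ± 0.44, adjusted p = 2.28e-10). Cd40lg, which licenses dendritic and B cells, rose from 0 to 0.31 TPM to 11.8, 28.7, 19.3 and 27.8 TPM (4.24 ± 0.42, adjusted p = 3.77e-08). Cd40lg is itself on the list of CD4 T cell markers, the defining Cd4 was at 0.26, 0.13, 2.72 and 11 TPM in spleen and 0.34 to 0.82 TPM in naive libraries, and the part of CD4 T cells was not tested. Cd48, a partner of the receptor encoded by Cd244, rose by 1.82, a call lost without spleen replicate 2 (adjusted p = 0.0642). Cd27 was at 109, 166, 303 and 123 TPM in spleen against 336 to 475 in naive cells (-1.29 ± 0.43, adjusted p = 0.077), and Cd28 at 39, 42.1, 50.8 and 49 against 54.6 to 64.2 TPM (adjusted p = 0.675).

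Of the 25 lists, the largest median, 2.62, was that of calcium-binding S100 proteins, annexins, galectins and cytoskeletal genes, of which 15 of 21 rose and 0 fell. Lgals3, the gene of galectin-3, had 0.28, 0.4, 0.04 and 0.43 TPM in naive and 2287, 3462, 681 and 1266 TPM in spleen libraries (10.31 ± 0.55, adjusted p = 1.65e-13). S100a4 went from 0.26, 1.31, 0.28 and 0 TPM to 3447, 4554, 702 and 706 TPM (10.23 ± 0.73, adjusted p = 3.65e-11) and S100a6 from 0.95, 1.09, 1.37 and 2.4 TPM to 4959.5, 5712, 1139 and 1385 TPM (10.08 ± 0.57, adjusted p = 2.39e-13). In all 3 genes replicates 1 and 2 were the highest. Myeloid cells make these genes too. The macrophage and monocyte list summed to 1228, 1458, 886 and 7592 TPM in the same libraries, and its part was not tested. Anxa1, a regulator of inflammation, reached 262, 235, 77.1 and 372 TPM from 0.67 to 7.84 (6.01 ± 0.58, adjusted p = 2.48e-08) and Anxa2 194, 285, 60.2 and 219 TPM from 2.18 to 3.04 (5.50 ± 0.51, adjusted p = 1.45e-08). Lmna, the nuclear lamin A gene, rose from 0.6 to 1.16 TPM to 91.2, 184, 51.8 and 113 TPM (5.72 ± 0.60, adjusted p = 1.23e-07). Ahnak, a large scaffold protein, Capg, an actin-capping protein, Lgals1, Vim and Crip1 rose by 5.45, 5.21, 4.94, 2.62 and 2.49.

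Ifitm1, a membrane protein that restricts virus entry, measured 0.23, 0.35, 0.12 and 0.08 TPM in naive and 5957, 1124, 645 and 1639 TPM in spleen libraries, most in replicate 1 (10.42 ± 0.93, adjusted p = 6.24e-09). Ifitm2, of the same family, went from 0.15 to 0.89 TPM to 468, 269.8, 94.6 and 343 TPM (7.4 ± 0.48, adjusted p = 7.53e-12). Of 10 Ly6 family genes tested 3 rose and 0 fell, with a median of 1.32. Ly6a, the gene of Sca-1, went from 144 to 177 TPM to 1107, 1447, 766 and 739 TPM (2.58 ± 0.47, adjusted p = 0.00048). Ly6d, a B lineage marker, reached 355, 377, 452 and 1199 TPM from 2.57 to 7.15, most in the library richest in B cell RNA (6.60 ± 1.44, adjusted p = 0.00367), and its part from B cells was not tested. Ly6c2, a marker of effector and memory CD8 T cells, was higher in every spleen library, at 1580.4, 433, 529 and 805 TPM against 63.8 to 72.6, and was not called (3.39 ± 1.22, adjusted p = 0.105).

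Of 25 cytokine receptor genes 2 rose and 2 fell, beside 3.62% higher and 2.46% lower of all genes tested. The list's median was -0.11, and 0.14, 0.09, 0.01 and 0.02 without spleen replicates 1, 2 and 3 and naive replicate 3. It became 0.88 when libraries were scaled to T cell identity and 0.39 with T cell identity as a covariate. The median of all genes was 0.59 under that scaling and -0.04 with the covariate. The rises in the list were both chains of the interleukin-18 receptor, through which T cells make interferon gamma without antigen. Il18rap went from 0.16, 0.17, 0.31 and 0.11 TPM to 33.6, 50.1, 14.1 and 39 TPM (4.76 ± 0.74, adjusted p = 6.76e-05) and Il18r1 from 5.59 to 6.68 TPM to 63.8, 74.2, 24.8 and 44.9 TPM (2.78 ± 0.46, adjusted p = 0.000185). The falls were the interleukin-6 receptor chains given above. Il7r, the receptor of a survival cytokine of naive and memory cells, measured 120.2, 109, 109 and 105 TPM in naive and 154, 139, 140.2 and 197 TPM in spleen libraries, slightly higher in each (0.49 ± 0.42, adjusted p = 0.579). Il2rb, the chain shared by the receptors for interleukins 2 and 15, measured 50.9, 42.9, 45.9 and 39.4 against 88.1, 195, 123 and 275 TPM and was not called (1.78 ± 0.62, adjusted p = 0.0935). In a fit of these 8 libraries alone Il2rb was called (adjusted p = 0.0209). Of 16 Bcl2 family genes 5 rose and 0 fell, with a median of 0.37. They comprise the survival genes Bcl2a1d, from 1.62 to 2.48 TPM to 65.2, 36.3, 29.9 and 69.6 TPM (3.98 ± 0.45, adjusted p = 4.61e-07), and Bcl2a1b (3.25), near-identical copies whose reads may be shared between them. They also comprise the death-promoting genes Bbc3, Pmaip1 and Bik, at 2.06, 2.04 and 1.87. Pmaip1 was not called without spleen replicate 4 (adjusted p = 0.0642), and Bik was called without spleen replicate 4 and not without any other library (adjusted p from 0.0504 to 0.193). Bcl2 itself was at 5.52, 4.89, 20.0 and 20.3 TPM in spleen against 31.1 to 53 in naive cells (-1.79 ± 0.61, adjusted p = 0.0792).

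T cell receptor signalling genes fell in 4 of 30 members and rose in 0, with a median of -0.63. This median turned to 0.40 when libraries were scaled to T cell identity and to 0.10 with T cell identity as a covariate. The median of all genes was 0.59 under that scaling and -0.04 with the covariate. Among the 4 that fell were the kinase genes Txk and Prkcq and the adaptor gene Themis. Txk went from 129 to 147 TPM to 6.29, 5.59, 68.8 and 28.9 TPM (-2.95 ± 0.78, adjusted p = 0.0176). Without spleen replicate 1 or spleen replicate 2 none of the 30 was called lower, and without any of the naive replicates 1 was. Of 35 immediate early genes 3 rose, Rgs1, the phosphatase gene Dusp5 (2.70) and the stress gene Gadd45b (2.03), and 1 fell, Nfkbiz (-1.57). Their median was 0.17 and turned to -0.14 without spleen replicate 4. Among all genes tested 3.62% were called higher and 2.46% lower. The call for Nfkbiz held without spleen replicate 4 and was lost without any other library (adjusted p from 0.0694 to 0.147). Fos, induced within minutes of stimulation or handling, was at 2.86, 2.52, 3.22 and 4.22 TPM in naive libraries and 0.11, 1.42, 9.22 and 96 TPM in spleen, and Jun at 15.8, 11.6, 12.4 and 12.8 and 0.14, 0.99, 16 and 56 TPM. Replicates 1 and 2 were below and replicate 4 far above the naive level, so the groups overlapped (adjusted p = 0.701 and 0.54).

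Cell cycle genes were higher in spleen than in naive cells. Of 39 proliferation genes 16 rose and 0 fell, with a median of 1.39, and 10 rose without naive replicate 1 or 2. Mki67, a marker of cycling cells, had 0.46, 0.24, 0.58 and 0.3 TPM in naive and 3.59, 11.5, 3.94 and 3.92 TPM in spleen libraries, so all spleen values were above all naive values and replicate 2 was the highest (2.14 ± 0.44, adjusted p = 0.00197). Birc5, the survivin gene of dividing cells, went from 3.58, 3.19, 5.54 and 1.94 TPM to 79.2, 29, 26.9 and 48.9 TPM (3.29 ± 0.59, adjusted p = 0.000464), and Cdk1, the mitotic kinase, from 1.66 to 3.96 TPM to 25.5, 37.1, 12.1 and 41.8 TPM (2.77 ± 0.48, adjusted p = 0.000281). Rrm2, which makes DNA precursors, rose by 2.86, Nusap1 by 2.88, Ube2c by 2.99 and Top2a by 1.97. Without naive replicate 1 or 2, 10 of the 39 were called higher, and Ube2c was called neither there nor without naive replicate 4 or spleen replicate 1 or 4 (adjusted p from 0.0648 to 0.084). The replication genes Pcna, at 159, 167, 137 and 133 TPM against 107 to 127, and Mcm2, at 8.48, 10.2, 35.2 and 28.1 against 24.4 to 27 TPM, were not called (adjusted p = 0.736 and 0.656). Smc4, a condensin subunit of mitotic chromosomes that was not on the list, fell from 706 to 768 TPM to 148, 95.9, 263 and 195 TPM (-2.14 ± 0.35, adjusted p = 0.00015).

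Large falls were also seen in genes outside the lists. Slc6a19, a transporter of neutral amino acids, had 163, 156, 153 and 151 TPM in naive libraries, 0 TPM in spleen replicates 1 and 2, 45.1 TPM in replicate 3 and 3.24 TPM in replicate 4 (-5.39 ± 0.74, adjusted p = 9.8e-06). Slc16a5, a monocarboxylate transporter gene, had 134, 128, 121 and 126 TPM against 0, 1.41, 45.4 and 8.47 TPM (-4.49 ± 0.68, adjusted p = 4.99e-05). Atp1b1, a subunit of the sodium pump, went from 63.7 to 77.2 TPM to 0.25, 0.25, 16 and 9.03 TPM (-4.13 ± 0.72, adjusted p = 0.000331). Art2b, a surface ADP-ribosyltransferase of mature T cells, went from 64.5 to 78 TPM to 2.24, 0, 10.4 and 10.2 TPM (-4.02 ± 0.69, adjusted p = 0.000274). Socs3, a feedback inhibitor of interleukin-6 signals, fell from 78.7 to 97.6 TPM to 3.42, 0.23, 48.9 and 20.4 TPM (-3.34 ± 0.72, adjusted p = 0.00349), in the same direction as the 2 receptor chains. Calcrl, the receptor of calcitonin gene-related peptide, fell by 3.19 on the log2 scale (adjusted p = 0.000577), and Ramp1, whose product completes this receptor, by 2.81 (adjusted p = 0.00447). Tdrp, Tmie, Siah1a and Map7 fell by 4.10, 3.77, 3.12 and 2.45. In each of Slc6a19, Slc16a5, Atp1b1, Tdrp, Tmie and Socs3, replicate 3 kept the most RNA of the spleen libraries. Under the scaling to T cell identity Slc6a19, Slc16a5, Atp1b1, Art2b and Tmie were still called lower, and Tdrp, Pdk1, Socs3, Smc4, Siah1a, Map7 and Calcrl were not.

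Few members of the metabolic lists were called, beside 3.62% higher and 2.46% lower of all genes tested. Of 26 glycolysis and hypoxia genes 0 rose and 2 fell, with a median of 0.15 that turned to -0.19 without spleen replicate 4. Pdk1, a kinase that shuts pyruvate out of mitochondria, fell from 227, 233, 222 and 223 TPM to 5.28, 8.95, 69.9 and 31.2 TPM (-3.55 ± 0.64, adjusted p = 0.000436) and P4ha1, a collagen-modifying enzyme, by 1.45 on the log2 scale, which was not called without spleen replicate 1 or 2 or any naive replicate (adjusted p from 0.0936 to 0.259). Of 36 oxidative phosphorylation genes none was called and the median was 0.16, but 13 were called higher under the scaling to T cell identity and 11 with it as a covariate. Among all genes tested 1229 were called higher under the scaling and 1105 with the covariate. The scaling also moved the median of all genes to 0.59, beside which the medians under it below are to be read. None of 22 lipid uptake and oxidation genes was called (median -0.13, and 0.72 under that scaling), nor of 20 cholesterol synthesis genes (median -0.79, and 0.16 under that scaling). Of 27 type I interferon response genes 1 fell, Oas2, an enzyme that senses double-stranded RNA (10.1 to 13 TPM to 0.49, 0, 0.36 and 3.41 TPM, -2.79 ± 0.47, adjusted p = 0.000216). The interferon list's median was -0.78, against 0.20 under that scaling and -0.49 without spleen replicate 1. Of 47 cytoplasmic ribosomal protein genes 1 fell, Rpl3 (adjusted p = 0.0363), which was called neither without any library other than spleen replicate 3 (adjusted p from 0.0588 to 0.124) nor under that scaling, where its sign turned to 0.08, and of 8 Gimap GTPase genes of lymphocyte survival none was called (medians -0.50 and -0.74, and 0.54 and 0.30 under that scaling). Without spleen replicate 4 the ribosomal median was -0.25.

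**Figure D4:**
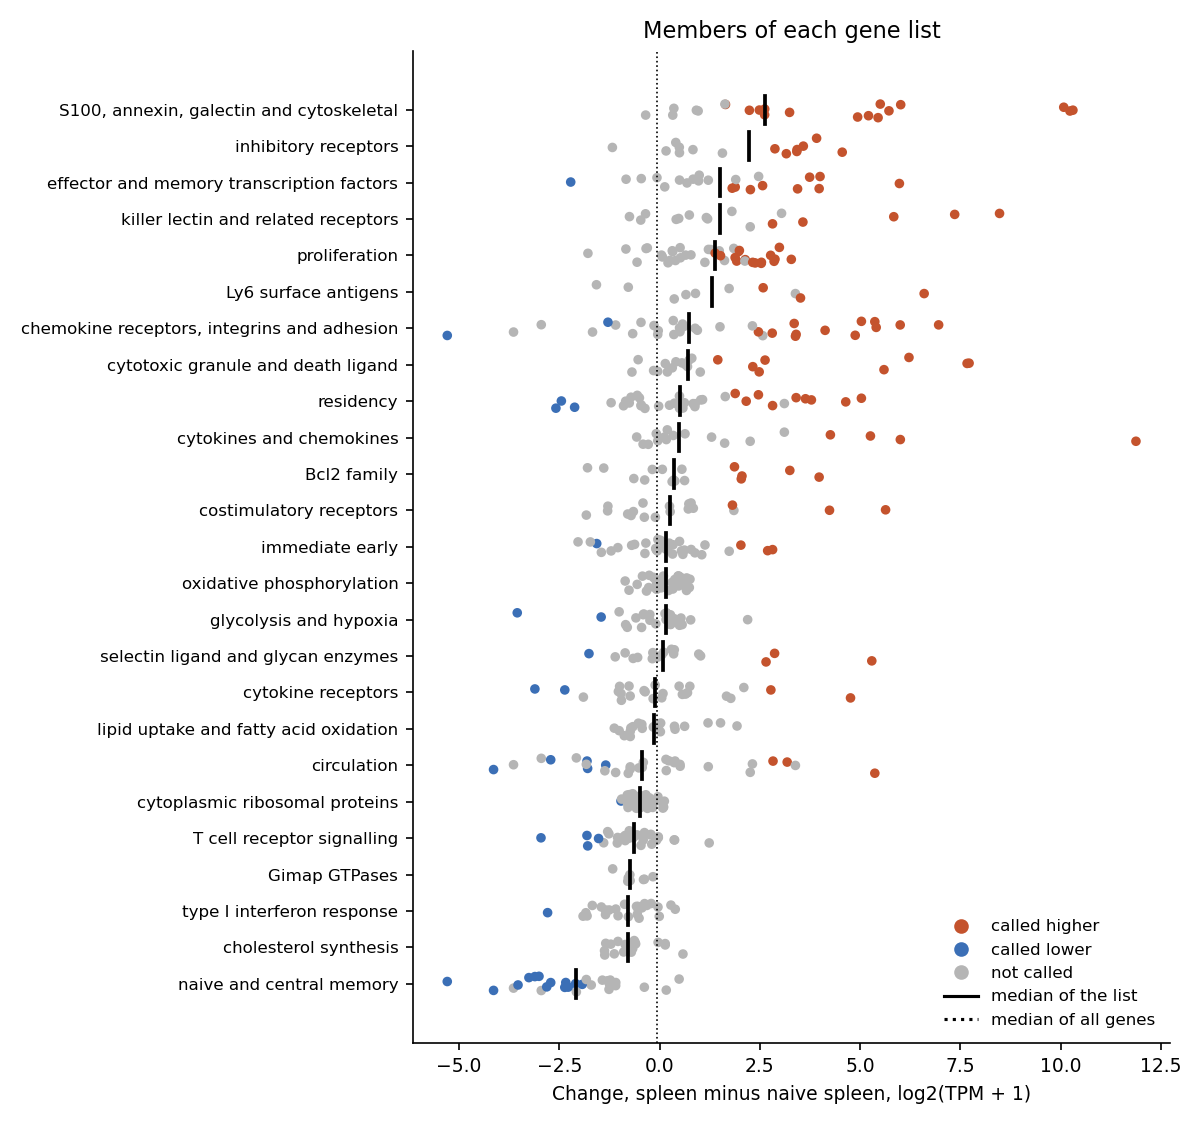
Change of each tested member of the 25 gene lists, spleen minus naive spleen on the log2(TPM + 1) scale, with members called higher in red, called lower in blue and others in grey, a bar at the list's median and a dotted line at the median of all genes (-0.05). The S100 and annexin list (median 2.62) and the naive list (median -2.08) lie at the ends, and the glycolysis (0.15) and oxidative phosphorylation (0.16) lists lie near the dotted line.

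Set against lymph node cells on day 12, the spleen cells differed in 1614 genes, 727 higher and 887 lower, or 8.18% of genes tested (3.68% and 4.49%). Without day 12 replicate 1, 2 or 3 the count was 1022, 1005 or 988. This comparison shares the spleen libraries with the one above, and organ and time cannot be told apart in it. Of the 39 cell cycle genes 38 were lower in spleen and 0 higher, with a median of -3.36. Birc5 measured 608, 611, 698 and 677 TPM on day 12 and 26.9 to 79.2 TPM in spleen (-3.92 ± 0.59, adjusted p = 5.69e-05), and Cdk1 289, 276, 288 and 267 TPM against 12.1 to 41.8 (-3.36 ± 0.48, adjusted p = 3.24e-05). Mki67 measured 38.8, 33.7, 39.9 and 43.5 TPM against 3.59 to 11.5 (-2.70 ± 0.44, adjusted p = 0.000143). Spleen levels of these genes thus lay between those of naive and of day 12 cells.

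For some effector genes no difference from day 12 was called. Gzmb measured 691, 640.0, 751 and 552 TPM on day 12 against 451, 664, 134 and 458 in spleen (-0.83 ± 0.55, adjusted p = 0.389), and Tbx21 97.1, 85.1, 76.6 and 76 TPM against 64.1, 95.8, 63.9 and 92.3 (-0.10 ± 0.57, adjusted p = 0.955). Neither difference was called, which does not show that the levels were equal. Ccl5 was higher in spleen than on day 12, where it measured 502, 547, 662 and 639 TPM (4.24 ± 0.65, adjusted p = 7.52e-05). Of the 16 killer lectin list members 4 were higher and 1 lower in spleen, with a median of 1.44. Klrc2, 1 of the 4, was not called when any library but spleen replicate 3 was left out (adjusted p from 0.0718 to 0.127). Klrk1 measured 145, 130.4, 146 and 122 TPM on day 12 (1.91 ± 0.52, adjusted p = 0.0186, and 0.0662 without spleen replicate 2 and 0.0511 without day 12 replicate 4) and Klre1 2.82, 2.15, 3.77 and 3.52 TPM (4.39 ± 0.96, adjusted p = 0.00328). Klrd1, not called against naive cells, was 1.97 ± 0.48 higher in spleen than on day 12 (adjusted p = 0.0091). Csf1 was higher by 3.58 ± 0.63 (adjusted p = 0.000295) and the death gene Bbc3 by 2.51 ± 0.46 (adjusted p = 0.000464).

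The survival receptor Il7r measured 25.2, 25.5, 27.2 and 20.5 TPM on day 12 and differed from spleen by 2.62 ± 0.42 (adjusted p = 0.000123). Bach2, a repressor of effector genes in naive and memory cells, was at 0.65, 0.67, 0.79 and 0.95 TPM on day 12 and 5.39, 5.38, 16.9 and 16.7 TPM in spleen (2.60 ± 0.47, adjusted p = 0.000461), against 20.7 to 33.1 TPM in naive cells. Eomes went the other way, at 29.9, 27.6, 27.4 and 26.9 TPM on day 12 and 1.16 to 11.3 TPM in spleen (-2.36 ± 0.58, adjusted p = 0.00927), as did Bcl2a1d (-2.05 ± 0.45, adjusted p = 0.00349). Ccr7 at 52.5, 49.5, 60.1 and 41.8 TPM on day 12 lay between spleen replicates 1 and 2 and spleen replicates 3 and 4, and was not called (adjusted p = 0.992). Of the cholesterol synthesis list 6 of 20 were lower in spleen and 0 higher (median -1.56), and of the glycolysis list 6 of 26 were lower, among them Ldha, the lactate dehydrogenase gene, at 1596, 1626, 1652 and 1425 TPM on day 12 and 256, 404, 620.4 and 512 TPM in spleen (-1.88 ± 0.36, adjusted p = 0.000977). Of the interferon list 4 of 27 were higher in spleen than on day 12, among them Ifit3, at 10.2, 8.31, 6.42 and 8.74 against 32.5, 74.5, 42.7 and 67.3 TPM (2.49 ± 0.50, adjusted p = 0.00145).

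**Figure D5:**
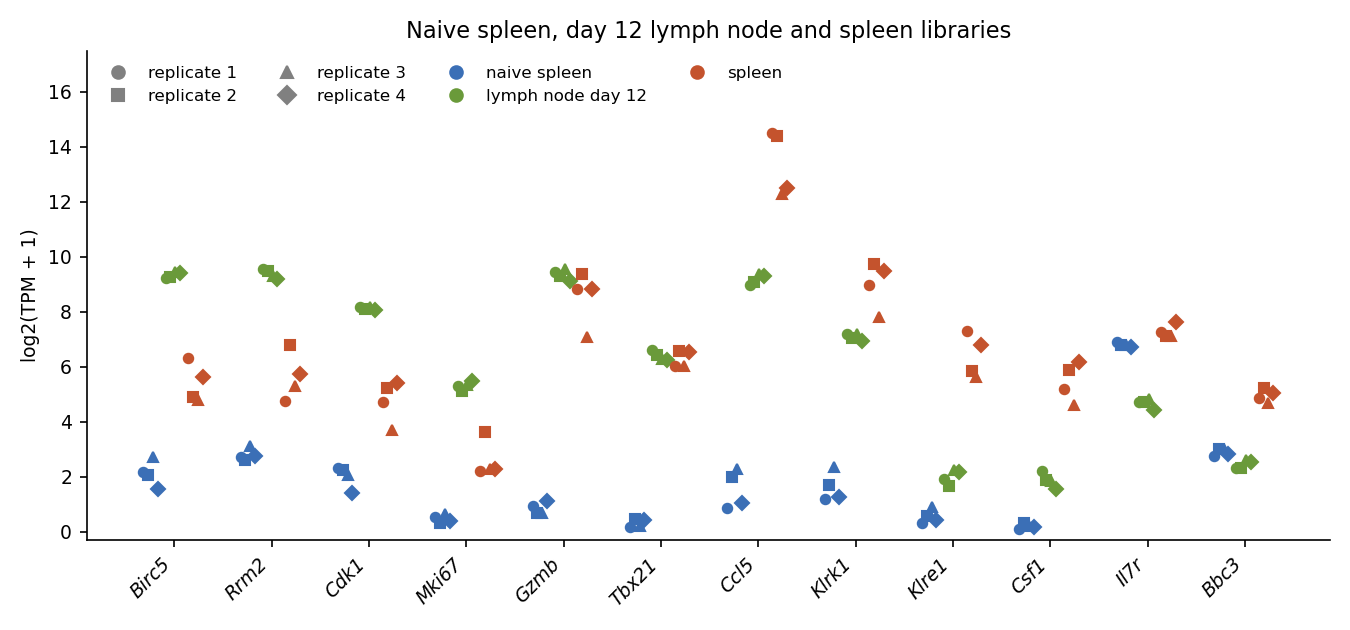
log2(TPM + 1) of 12 genes in each naive spleen (blue), day 12 lymph node (green) and spleen (red) library, with 1 symbol per replicate number. The cell cycle genes Birc5, Rrm2, Cdk1 and Mki67 are highest on day 12 and intermediate in spleen, the difference between day 12 and spleen was not called for Gzmb and Tbx21, and Ccl5, Klrk1, Klre1, Csf1, Il7r and Bbc3 are higher in spleen than on day 12.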

How the data were processed

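Bulk RNA was sequenced from sorted CD8+ Thy1.1+ Pmel T cells. Alignment with Bowtie to mm10 is recorded per the submitters' processing notes. Its version, annotation and counting method stand in none of the sources used here. The deposited values are natural log (ln) values of TPM + 1, as read from the values themselves: converted back they are multiples of 0.01 TPM and sum to nearly the same total in each library. No counts were used, so depth and counting error are unknown. Of 46517 gene names, 2163 had a dot changed back to a hyphen and 40388 (86.8%) matched a symbol of the reference annotation.

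Values were put on a log2(TPM + 1) scale. The table had 42409 genes above 0, and 19738 reached 1 TPM in 4 or more of 32 libraries. These were fitted in R 4.3.3 by limma 3.58.1 with its mean-variance trend over all 8 groups (24 residual degrees of freedom), and p-values were adjusted by Benjamini-Hochberg over all of them. The procedure was tested on simulated data. Marker sums were compared by exact two-sided permutation over libraries, adjusted over 13 lists, where the smallest p for 4 against 4 is 0.0286. Other steps ran in Python 3.11.15 (pandas 2.3.3, NumPy 2.4.6, Matplotlib 3.10.9, SciPy 1.17.1). Motifs were searched in RefSeq promoters of GRCm38.p6.

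Genes were named by rule: among called genes whose groups did not overlap and whose mean log2 level was 3 or more, the 10 largest changes and the 10 smallest p-values per direction, 24 core genes, up to 5 called members of each of 25 lists and up to 3 uncalled ones. Further list members named with values were chosen after these were seen. Unnamed genes, antigen receptor segments and markers of other cell types were not eligible for the 10 largest changes or the 10 smallest p-values. Of these, only core genes and list members could be named. The members of all lists were chosen with earlier results of these data known. List members below the filter or without a row were Klra6, Ly6h, Cd244a, Vsir, Lilrb4 and Ly6m, and the filter let genes through that were high in a single group, so list counts cover tested members alone. Some genes chosen by the rule are not reported here.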

Additional observations from a re-analysis of the deposited data

Results flagged for a closer look

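In 13 of 242 sets of 4 libraries examined, the highest or lowest library lay apart from the other 3 beyond Dixon's critical value, which chance gives in about 1 of 20 sets. The values below are the gap to the nearest library divided by the range of the 4 libraries. They were taken on the log2(TPM + 1) scale for genes and on the TPM scale for marker sums. Among marker sums, it was 0.989 for neutrophil genes and 0.915 for macrophage and monocyte genes in spleen replicate 4, and 0.93 for plasma cell genes in naive replicate 3, all at very low TPM in the last. Among naive libraries, replicate 1 stood apart for Lef1 (0.887), Satb1 (0.912), Oas2 (0.852) and Ttc39c (0.84), replicate 2 for Ccr10 (1.0), and replicate 3 for Tcf7 (0.863) and Ccr2 (0.91). Lef1 measured 674, 588, 586 and 595 TPM, Ccr2 0.32, 0.5, 4.45 and 0.42 TPM and Ccr10 0.04, 0, 0.04 and 0.04 TPM in naive libraries. Among spleen libraries, replicate 1 stood apart for Klf2 (0.852), as the lowest at 483 TPM. Replicate 2 stood apart as the highest for Mki67 (0.926), at 11.5 TPM, and for Ly6g5b (0.847), at 105 TPM against 15.2, 10.6 and 13.5 TPM in the others. The same replicate was the highest for Ccr10 and Ccr8.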

How the results depend on the processing

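Of the 96 named genes called in spleen against naive cells, 79 were called whichever single library was left out. All 96 stayed called in the same direction with a 5 TPM filter, with array weights, with weights per group and when 6 libraries with less than 0.5 of the median T cell identity sum were dropped, of which spleen replicate 4 belongs to these groups. The number was 95 with quantile normalization, 91 without spleen replicates 3 and 4, 89 with T cell identity as covariate, 88 of 93 tested after rescaling, 87 without a filter and with a pseudocount of 0.1 TPM, 82 in a fit of the 2 groups and 74 with scaling to T cell identity, where all 68 rises were kept. Every spleen library had a lower identity sum than any naive one, so that scaling raises spleen values against naive ones in all genes. It therefore favours rises and is no check on them. The 715 rises became 1307 with array weights, 1259 with weights per group, 1105 with the covariate, 1229 with that scaling and 1467 without the libraries of low identity. The 486 falls became 1221 with array weights, 1261 with weights per group, 848 with quantile normalization, 289 with the pseudocount of 0.1, 41 with that scaling, 2881 without the libraries of low identity and 1185 without spleen replicates 3 and 4. The last 2 settings were added after the data were seen. Leaving out 1 library gave 499 to 784 rises and 246 to 736 falls: without spleen replicates 1, 2, 3 and 4 the falls were 274, 246, 602 and 736, and without naive replicates 1 to 4 they were 275, 298, 292 and 323. The share of rises among calls, 59.5%, was 46.4% without spleen replicate 4, 69.8% and 70.9% without spleen replicates 1 and 2, 50% to 51.7% with weights, 48.2% with quantile normalization, 70.4% with the pseudocount, 67.6% with the covariate, 96.8% with that scaling, 89.1% with the replicate block, 33.7% without the libraries of low identity, 39.7% without spleen replicates 3 and 4 and 53.6% to 65.2% under the other settings. Signs turned for Itgae (0.57 with scaling to T cell identity and 0.52 with the covariate) and Rpl3 (0.0816 with that scaling). The difference in T cell identity sum was -19593 TPM and lay between -23263 and -16540 without 1 library. The day 12 difference of 1614 genes became 2582 in a fit of those 2 groups and 988 to 1840 without 1 library. The cause of these moves was not tested.

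Same-numbered spleen and naive libraries had correlations of residuals of -0.19, -0.014, -0.20 and 0.10, and differently numbered ones reached 0.318. These values cannot settle whether the replicate numbers of the labels pair the samples. The fit used for the calls above took the libraries as unpaired. With the replicate number as a block in a fit of the 2 groups, 238 rises and 29 falls were called and 51 of 96 named genes, and 470 genes against day 12. Without counts, the precision of genes at low TPM cannot be given.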

Other observations

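Naive libraries held 893, 825, 802 and 933 TPM of Ighm, the IgM heavy chain, beside 8.77 to 30.7 TPM of Igkc. Spleen libraries held 169, 271, 3201 and 3935 TPM of Ighm beside 899.6, 976, 4956 and 11638 TPM of Igkc, so the ratio of both genes was unlike in the 2 groups and Ighm was lower in spleen replicates 1 and 2 than in any naive library. The genes were chosen after their values were seen.

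The remaining marker sums, in TPM, were as follows. Hepatocyte genes summed to 65, 47.2, 108 and 352 in spleen libraries against 0.67 to 4.17 in naive ones, and platelet genes to 12.4, 14.7, 30.7 and 71.1 against 0.98 to 1.3 (adjusted exact permutation p = 0.0413 for each). Most of the hepatocyte sum in spleen replicates 1, 2 and 4 was Trf, at 54.3, 44.2, 25.5 and 346 TPM in replicates 1 to 4. The albumin gene Alb was at 7.24, 0.79, 9.24 and 1.44 TPM in spleen against 0.03 to 2.81 in naive libraries. Plasma cell genes summed to 44.9, 73.3, 665 and 1463 against 1.55 to 2.69, with Jchain at 1.08, 1.9, 556 and 727 TPM in spleen. Dendritic cell (adjusted p = 0.186), erythroid (0.743), gamma delta T cell (0.169) and stromal sums (0.0743) did not pass the exact permutation test.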
